A study of Mus musculus with 9 samples.

Results

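Cytotoxic granules of natural killer (NK) cells hold cathepsins, the acid proteases of lysosomes, together with proteins that hold them in check. The 8 genes described here were chosen by symbol: the proteases Ctsc, Ctsw, Ctsd, Ctsb and Ctsl, and the inhibitors Cst7, Ctla2a and Ctla2b. Each had 1 probe set, each lay at or above the array median on 9 of 9 arrays, and all 8 were among the 12579 genes tested. The arrays came from splenic NK cells of female C57BL/6N mice of 3 genotypes: mice without Tyk2 (Tyk2-/-), mice with a kinase-inactive form of the protein (Tyk2K923E) and wild-type mice (WT). For each array, DX5-enriched spleen cells of 3 to 4 mice were combined and grown for 7 days with 5000 U/ml rhIL-2 (human interleukin 2), being split on days 4 and 6. Every group had thus been exposed to this cytokine, and none was fresh. There were 3 independent experiments with 1 array per genotype in each, which makes 3 arrays per genotype and 9 in all.

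Tyk2 is a Janus kinase that acts below several cytokine receptors, among them those of interferon alpha and beta and of IL-12. Cathepsins are made as inactive precursors whose propeptide blocks the active site until it is removed in an acid compartment. In cytotoxic lymphocytes cathepsin C cuts a dipeptide from the front of the granzymes and so switches them on, and cystatin F, the product of Cst7, enters the same granules and restrains cathepsin C. The mouse proteins encoded by Ctla2a and Ctla2b resemble the propeptide of a cathepsin without the enzyme behind it.

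Values were RMA values on a log2 scale, on which a difference of 1 is a doubling of signal. Levels were compared between arrays for the same gene and never between genes, because probe sets differ in brightness. The 9 array medians lay between 5.42 and 5.48. All 9 listed NK cell markers were above the filter described below. So were 9 of 10 listed T cell markers, so passing the filter does not single out NK cells. The 3 arrays of experiment 1 lay all above the other 6 for 14.5% of genes and all below them for 18.7%. The probe set of Tyk2 gave 9.01 on average on the Tyk2-/- arrays, 8.53 on the Tyk2K923E arrays and 8.62 on the WT arrays. It was not lower on the Tyk2-/- arrays than on the WT arrays but read higher in each experiment, by 0.88, 0.06 and 0.23. The mean difference was 0.39 (adjusted p = 0.488 in the limma test described below). On the Tyk2K923E arrays it differed from WT by -0.10 (adjusted p = 0.883). Neither the deleted part nor the probe positions were given in the sources used here, so this reading checks no genotype, and directions below are those of the arrays as labelled.

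The comparisons ask what loss of Tyk2, or of its kinase activity alone, does to the protease system of the granule. None of the 8 genes passed in any comparison between genotypes. The test was limma with the experiments paired, and the threshold was a Benjamini-Hochberg adjusted p of 0.05 over all 12579 genes. The share of all genes that passed was 0.0874% for Tyk2-/- against WT, 0.0874% for Tyk2K923E against WT and 0.0238% for Tyk2-/- against Tyk2K923E. At an unadjusted p under 0.05 there were 2 of 8 members in Tyk2-/- against WT (9.08% of all genes), 1 of 8 in Tyk2K923E against WT (10% of all genes) and 3 of 8 in Tyk2-/- against Tyk2K923E (9.68% of all genes). The median difference over the members was -0.10, -0.0038 and -0.08 in these comparisons, and the median over all genes was 0.0045, 0.0020 and 0.0026. The first and the second comparison use the same WT arrays and so are not independent. The third likewise shares the Tyk2-/- arrays with the first and the Tyk2K923E arrays with the second.

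**Figure D1:**
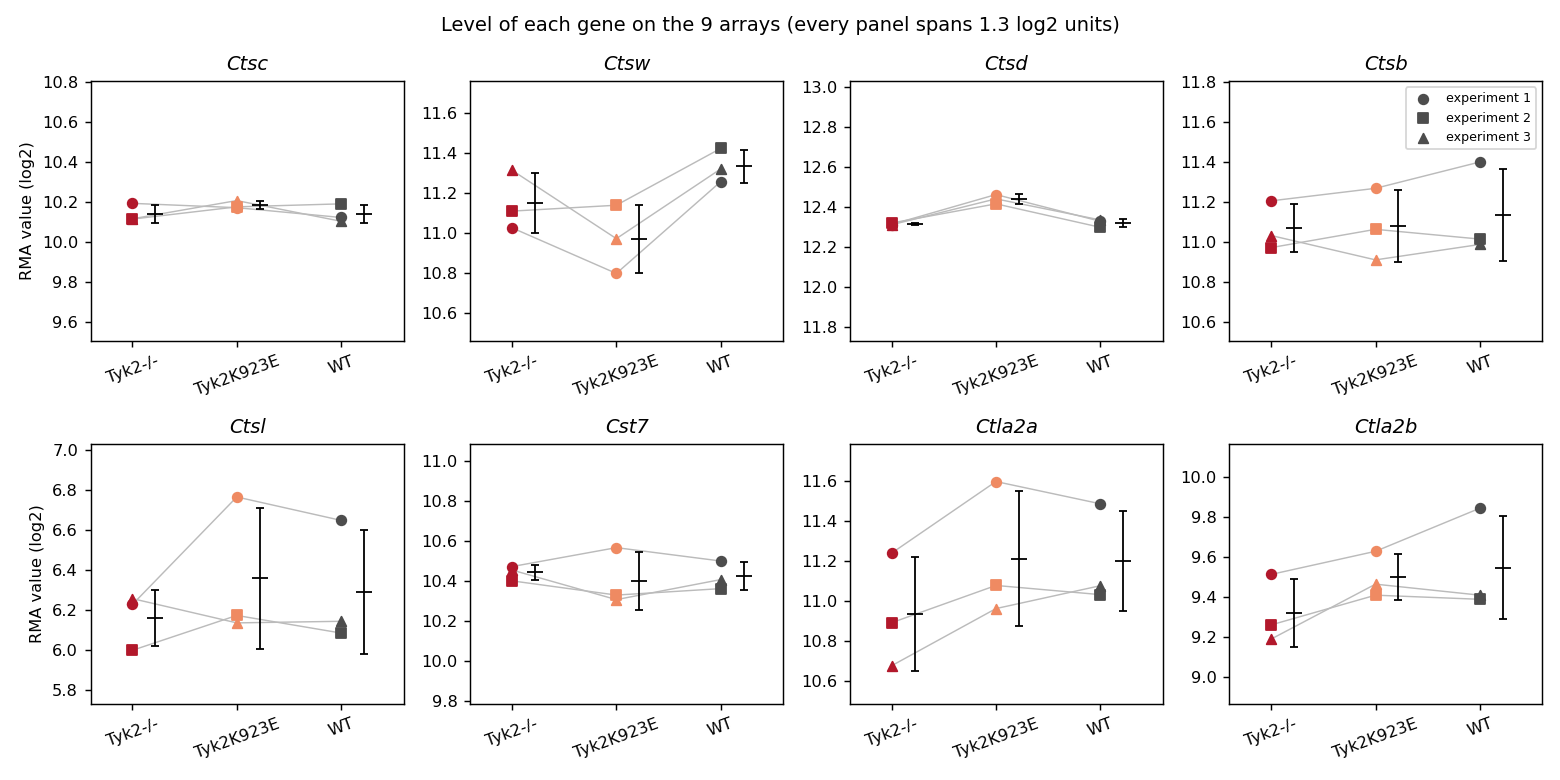
RMA value (log2, vertical axis) of each of the 8 genes on every array, by genotype. Circles, squares and triangles are experiments 1, 2 and 3, grey lines join the arrays of an experiment, and the black bar beside each group is its mean ± SD (n = 3). Ctsw is lowest in Tyk2K923E (10.97 on average) and highest in WT (11.33), the 3 Tyk2K923E arrays of Ctsd lie above the other 6, and the circles of Ctla2a, Ctla2b and Ctsb lie above the squares and triangles of the same genes.

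Ctsw encodes cathepsin W, also called lymphopain, a papain-type protease found in NK cells and cytotoxic T cells. It read 11.03, 11.11 and 11.31 in experiments 1, 2 and 3 in Tyk2-/-, 10.80, 11.14 and 10.97 in Tyk2K923E, and 11.26, 11.42 and 11.32 in WT. Every Tyk2K923E array lay below every WT array, whereas the Tyk2-/- arrays overlapped both of the other groups. The difference of Ctsw between Tyk2K923E and WT was -0.36 (SE 0.08, 95% interval -0.55 to -0.18), a ratio of 0.777, with values of -0.46, -0.28 and -0.35 in the 3 experiments. Its unadjusted p was 0.00208 and its limma adjusted p was 0.167, so it missed the threshold, although 97.6% of all genes differed by less. Between Tyk2-/- and WT Ctsw differed by -0.18 (95% interval -0.37 to 0.0041, adjusted p = 0.562), with -0.23 and -0.31 in experiments 1 and 2 and -0.01 in experiment 3. Between Tyk2-/- and Tyk2K923E it differed by 0.18 (95% interval -0.01 to 0.37, adjusted p = 0.521). Single arrays moved both values: the difference from WT was -0.10 without the Tyk2-/- array of experiment 2, and that from Tyk2K923E was 0.10 without the Tyk2-/- array of experiment 3. The order of the means was therefore Tyk2K923E, Tyk2-/- and WT from low to high, and no step in it passed the test.

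Markers of T cells, which also make cathepsin W, were lower beside Ctsw. Of 10 listed T cell markers 9 were above the filter, with Cd4 below it. All 9 were lower in Tyk2K923E than in WT, with a median of -0.36. In limma 0 of them passed and 4 had an unadjusted p under 0.05 (10% of all genes). Their mean level per array ran from 8.47 to 8.75 in Tyk2K923E and from 8.76 to 9.19 in WT. The 8.75 of Tyk2K923E and the 8.76 of WT were both from experiment 2, where Ctsw differed by -0.28. In experiments 1 and 3 the mean levels of the markers lay further apart between these genotypes. Cd8a, a chain of the CD8 coreceptor, differed by -0.92 (adjusted p = 0.173), with -1.19, -0.15 and -1.42 in experiments 1, 2 and 3. Lat, an adaptor of the T cell receptor that NK cells also express, differed by -0.48 (adjusted p = 0.0696), with -0.47, -0.41 and -0.55 in the same experiments. Cd3e, Cd3d and Cd3g differed by -0.38, -0.36 and -0.28, and Cd3d by -0.78, 0.12 and -0.41 in these experiments. In Tyk2-/- the mean level of the markers ran from 8.74 to 9.06. There 8 of the 9 were lower than in WT, with a median of -0.11. Cd8a differed by -0.32 in Tyk2-/- against WT, and Cd3e, Cd3d and Cd3g by 0.01, -0.01 and -0.03. In bulk RNA, fewer cells of a type and less RNA per cell cannot be told apart, and the part of T cells in the difference of Ctsw was not tested. The NK marker Itga2, the antigen of the DX5 antibody used for enrichment, fell by 0.71 in Tyk2K923E against WT (adjusted p = 0.0375, or 0.155 unpaired).

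Ctsd encodes cathepsin D, the aspartic protease of lysosomes. It read 12.31, 12.32 and 12.31 in Tyk2-/-, 12.46, 12.42 and 12.44 in Tyk2K923E, and 12.33, 12.30 and 12.33 in WT. The 3 Tyk2K923E arrays lay above the 6 arrays of the other genotypes in a gene that varied by only 0.16 over all 9. The difference of Ctsd was 0.12 between Tyk2K923E and WT (SE 0.05, 95% interval -0.0048 to 0.24), a ratio of 1.09, with 0.13, 0.12 and 0.11 in the 3 experiments. It was -0.13 between Tyk2-/- and Tyk2K923E (95% interval -0.25 to -0.0015) and -0.01 between Tyk2-/- and WT (95% interval -0.13 to 0.12). The limma adjusted p values were 0.522, 0.509 and 0.983. Genotype took 94.0% of the variation of Ctsd over the arrays, but limma weighs a gene's own spread together with that of all genes, and a step of this size did not pass. Ctsw and Ctsd were the 2 of 8 members whose groups did not overlap between Tyk2K923E and WT, where 7.23% of all genes did not overlap. In Tyk2-/- against WT 0 of 8 members were free of overlap (5.33% of all genes), and in Tyk2-/- against Tyk2K923E only Ctsd was (5.51% of all genes).

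Beside Ctsd, markers of basophils and mast cells, cells with granules rich in proteases, were higher in Tyk2K923E. Of 7 listed markers 3 were above the filter, and their mean level per array was 8.54 to 9.22 in Tyk2K923E and 8.16 to 8.61 in WT. It was 8.36 to 8.87 in Tyk2-/-. Mcpt8, a basophil protease, differed by 0.77 (limma adjusted p = 0.0684) between Tyk2K923E and WT, and Cpa3, a mast cell carboxypeptidase, by 0.91 (adjusted p = 0.19). Kit, the third marker, differed by 0.26 (adjusted p = 0.605), with -0.06, 0.71 and 0.14 in the 3 experiments. Of the 3 markers 0 passed. Between Tyk2-/- and WT, where Ctsd differed by -0.01, Mcpt8 differed by 0.49, Kit by 0.29 and Cpa3 by -0.02. Ms4a2 and Fcer1a, chains of the IgE receptor that define these cells, were below the filter. The part of these cells in the difference of Ctsd was not tested.

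The promoter of Ctsd is shown because an E-box in promoters of lysosomal genes is bound by TFEB and TFE3, which switch on lysosomal genes together. The 250 bases before the gene start were taken from RefSeq on GRCm38.p6, for Ctsd chr7:142387828-142388077, minus strand, and for Ctsl chr13:64370521-64370770, minus strand. Promoters of 6 of the 8 members were matched by symbol, and Ctsb and Ctsw had no entry. The motifs searched, on both strands, were CACGTG (the E-box), TTCNNNGAA (a site of STAT factors), the core of the interferon response element and TGACTCA (an AP-1 site). Capitals mark any match, 5′ to 3′ on the strand of the gene.
Ctsd: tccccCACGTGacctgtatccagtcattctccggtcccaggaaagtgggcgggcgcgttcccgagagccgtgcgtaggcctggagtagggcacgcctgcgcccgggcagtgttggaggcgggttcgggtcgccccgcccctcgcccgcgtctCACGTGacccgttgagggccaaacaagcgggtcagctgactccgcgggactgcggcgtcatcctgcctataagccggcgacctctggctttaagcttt
Ctsl: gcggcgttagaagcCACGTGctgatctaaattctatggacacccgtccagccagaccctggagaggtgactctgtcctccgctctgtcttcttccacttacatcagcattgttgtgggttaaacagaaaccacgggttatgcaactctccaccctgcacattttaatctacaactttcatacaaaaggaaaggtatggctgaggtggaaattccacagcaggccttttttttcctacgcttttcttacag

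The E-box began 245 and 98 bases before the start of Ctsd and 236 bases before that of Ctsl. It was in 0 of the 4 other promoters and in 6.05% of 27025 promoters of the same length. The interferon response motif was in none of the 6 and in 3.04% of all. A match is a description of letters and not a binding site. None of the tested factors passed. Between Tyk2K923E and WT Tfeb differed by -0.13, Tfe3 by -0.06 and Mitf by 0.09, and between Tyk2-/- and WT the same genes differed by 0.02, -0.06 and 0.01, with limma adjusted p from 0.68 to 0.978.

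Ctsc, the enzyme that activates granzymes, was the steadiest of the 8, with a range of 0.10 over the 9 arrays against a median range of 0.43 over all genes. It lay between 10.11 and 10.19 in Tyk2-/-, between 10.17 and 10.21 in Tyk2K923E and between 10.10 and 10.19 in WT. The 3 groups overlapped. Ctsc differed by 0.0024 between Tyk2-/- and WT (95% interval -0.13 to 0.14) and by 0.05 between Tyk2K923E and WT (95% interval -0.09 to 0.18).

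Cst7, whose product restrains cathepsin C, lay between 10.40 and 10.47 in Tyk2-/-, between 10.31 and 10.57 in Tyk2K923E and between 10.36 and 10.50 in WT. It differed by 0.02 between Tyk2-/- and WT (95% interval -0.13 to 0.17) and by -0.02 between Tyk2K923E and WT (95% interval -0.17 to 0.13). Neither the enzyme nor its inhibitor passed, and the limma adjusted p of both lay between 0.855 and 0.996 against WT. Their intervals against WT reach from -0.17 to 0.18, and differences within them are not excluded.

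Ctsb encodes cathepsin B, a cysteine protease of most lysosomes that is also found at the surface of cytotoxic cells after degranulation. It read 11.20, 10.97 and 11.03 in Tyk2-/-, 11.27, 11.06 and 10.91 in Tyk2K923E, and 11.40, 11.01 and 10.99 in WT. All 3 groups overlapped, and the arrays of experiment 1 were the highest of each genotype. Ctsb differed by -0.06 between Tyk2-/- and WT (95% interval -0.22 to 0.10, adjusted p = 0.816) and by -0.05 between Tyk2K923E and WT (95% interval -0.21 to 0.11, adjusted p = 0.857). Ctsl, cathepsin L, had the widest error of the 8 genes. It read 6.23, 6.00 and 6.26 in Tyk2-/-, 6.77, 6.17 and 6.14 in Tyk2K923E, and 6.65, 6.09 and 6.14 in WT. The groups overlapped, and the highest readings of Tyk2K923E and WT were both from experiment 1. Ctsl differed by -0.13 between Tyk2-/- and WT (95% interval -0.40 to 0.13, adjusted p = 0.767), and that difference was 0.01 without experiment 1. It differed by 0.07 between Tyk2K923E and WT (95% interval -0.20 to 0.33, adjusted p = 0.9).

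**Figure D2:**
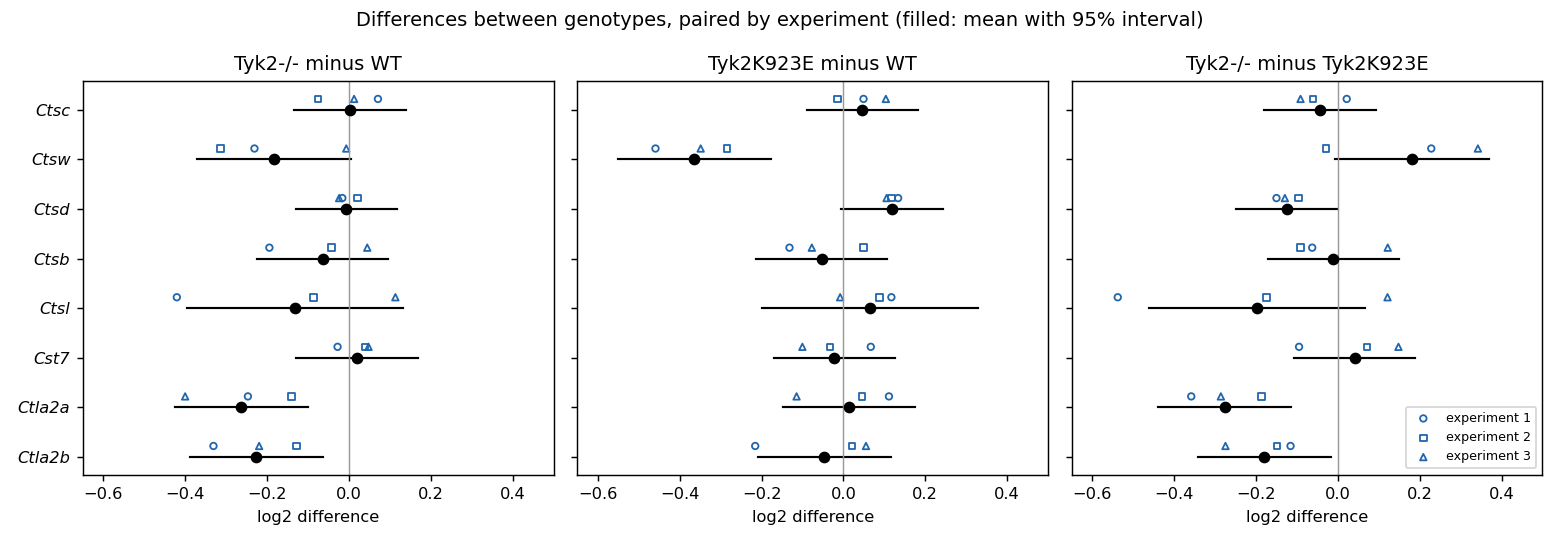
Log2 difference (horizontal axis) of each gene in the 3 comparisons. Filled points with lines are the paired limma estimate and its 95% interval, and open symbols are the differences within experiments 1 (circle), 2 (square) and 3 (triangle). The interval of Ctsw in Tyk2K923E against WT runs from -0.55 to -0.18, and those of Ctla2a and Ctla2b lie below 0 in Tyk2-/- against WT and against Tyk2K923E.

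Ctla2a and Ctla2b, the propeptide-like inhibitors, were lower in Tyk2-/- than in both other genotypes within every experiment, without passing the test. Both comparisons rest on the same 3 Tyk2-/- arrays and are not independent. Ctla2a read 11.24, 10.89 and 10.68 in Tyk2-/-, 11.60, 11.08 and 10.96 in Tyk2K923E, and 11.49, 11.03 and 11.08 in WT. The groups overlapped, and experiment 1 was the highest of each genotype. The difference of Ctla2a between Tyk2-/- and WT was -0.26 (SE 0.07, 95% interval -0.42 to -0.10), a ratio of 0.834, with -0.25, -0.14 and -0.40 in the 3 experiments. Its unadjusted p was 0.0056 and its limma adjusted p was 0.355, or 1 with the experiments unpaired. Between Tyk2-/- and Tyk2K923E it differed by -0.28 (95% interval -0.44 to -0.12, adjusted p = 0.452), with -0.36, -0.19 and -0.29 in the 3 experiments. Between Tyk2K923E and WT it differed by 0.01 (95% interval -0.15 to 0.18, adjusted p = 0.973).

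Ctla2b read 9.51, 9.26 and 9.19 in Tyk2-/-, 9.63, 9.41 and 9.47 in Tyk2K923E, and 9.85, 9.39 and 9.41 in WT. It repeated the order of Ctla2a within experiments for Tyk2-/-, again with overlapping groups. Its difference was -0.23 between Tyk2-/- and WT (SE 0.07, 95% interval -0.39 to -0.06), with -0.33, -0.13 and -0.22 in the 3 experiments (limma adjusted p = 0.439). It was -0.18 between Tyk2-/- and Tyk2K923E (95% interval -0.34 to -0.02, adjusted p = 0.487) and -0.05 between Tyk2K923E and WT (95% interval -0.21 to 0.12, adjusted p = 0.883). Including these inhibitors, 3 of 8 members kept 1 sign in all 3 experiments for Tyk2-/- against WT (30.1% of all genes), 2 of 8 for Tyk2K923E against WT (30.9%) and 3 of 8 for Tyk2-/- against Tyk2K923E (28.5%), shares near those of all genes.

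Beside the lower Ctla2 readings, the 9 NK cell markers had a mean level of 10.92 to 11.10 in Tyk2-/-, 10.99 to 11.00 in Tyk2K923E and 11.10 to 11.17 in WT. Of the 9 markers 6 read lower and 3 higher in Tyk2-/- against WT. The counts were also 6 lower and 3 higher in Tyk2K923E against WT. In limma 0 of these markers passed in Tyk2-/- against WT, and 4 were lower at an unadjusted p under 0.05 (9.08% of all genes). In Tyk2K923E against WT 2 were lower at that unadjusted p (10% of all genes), and Itga2 passed. Ctla2a and Ctla2b differed by 0.01 and -0.05 in that comparison. The part of the NK markers in the readings of Ctla2a and Ctla2b was not tested.

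The Ctla2 genes are close copies of each other on chromosome 13, with the protein-coding gene Tpbpb between them in the RefSeq order. The probe sequences were not used here, and how far the probe sets separate the copies was not tested. Their promoters are shown because they let the copies be compared letter by letter: Ctla2a at chr13:60936626-60936875, minus strand, from the start listed first of its 2, and Ctla2b at chr13:60897448-60897697, minus strand, each 250 bases from RefSeq on GRCm38.p6. Capitals again mark matches to the motifs above.
Ctla2a: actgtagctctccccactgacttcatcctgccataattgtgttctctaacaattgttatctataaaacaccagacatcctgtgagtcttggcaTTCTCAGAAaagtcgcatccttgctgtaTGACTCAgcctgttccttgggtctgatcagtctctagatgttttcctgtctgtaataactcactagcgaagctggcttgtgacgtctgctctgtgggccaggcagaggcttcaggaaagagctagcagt
Ctla2b: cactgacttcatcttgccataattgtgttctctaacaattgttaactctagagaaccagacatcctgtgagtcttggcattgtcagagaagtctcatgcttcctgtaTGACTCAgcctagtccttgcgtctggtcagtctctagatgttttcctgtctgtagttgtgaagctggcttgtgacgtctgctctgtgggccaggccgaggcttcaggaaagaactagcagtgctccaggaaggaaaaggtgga

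In a global alignment these promoters were identical at 209 of 228 aligned bases, or 91.7%, while the other pairs among the 6 promoters reached 66.3% to 74.3% of their aligned bases under the same settings. The AP-1 letters were in both, beginning 129 bases before the start of Ctla2a and 143 bases before that of Ctla2b, and in 4.43% of all promoters. The STAT letters were in Ctla2a, beginning 157 bases before its start, and in Ctsc at 236, but not in this window of Ctla2b. They were in 7.18% of all promoters. The promoter of Cst7 held none of the 4 motifs.

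Variation between experiments exceeded that between genotypes for most of these genes. By limma's moderated F-test over the 3 experiments, 4 of 8 members passed at an adjusted p of 0.05, while 28.7% of all genes did. Ctla2a averaged 11.44 ± 0.18 in experiment 1, 11.00 ± 0.10 in experiment 2 and 10.91 ± 0.21 in experiment 3 (SD over the 3 genotypes; adjusted p = 0.00219). Ctla2b averaged 9.66 in experiment 1, 9.35 in experiment 2 and 9.36 in experiment 3 (adjusted p = 0.0171). Ctsb averaged 11.29, 11.02 and 10.98 (adjusted p = 0.019), and Ctsl 6.55, 6.09 and 6.18 (adjusted p = 0.0349). In each of these genes experiment 1 had the highest mean, by 0.29 to 0.49 over the mean of the other two. With experiment 1 left out, 0 of 8 members and 0 of all genes passed between experiments 2 and 3 in limma (974 genes at an unadjusted p under 0.05), while fits of the same size without experiment 2 or without experiment 3 still called 3 and 4 of 8 members (26.8% and 20.5% of all genes). The call of Ctsl was lost without experiment 2. The calls of Ctsb and Ctsl were lost when dim probe sets were kept in the test, where 2 of 8 members and 11.3% of all genes passed. With the filter at the 70th percentile Ctsl was not tested, and 3 of 7 members passed against 44.3% of all genes.

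Ctsw went the other way, with 11.03 in experiment 1 against 11.22 and 11.20 in experiments 2 and 3, and did not pass (adjusted p = 0.176). Cst7 averaged 10.51 in experiment 1, 10.36 in experiment 2 and 10.39 in experiment 3 (adjusted p = 0.21), and all 3 of its experiment 1 arrays lay above the other 6. That was also so for Ctsb, Ctla2a and Ctla2b, and for 14.5% of all genes. Ctsc and Ctsd barely moved between experiments, with ranges of 0.02 between experiment means (adjusted p = 0.955 and 0.936). The experiment took 84.8% of the variation of Ctsb, 74.2% of that of Ctla2a, 67.1% for Cst7, 66.0% for Ctsl and 63.0% for Ctla2b. It took 22.2% for Ctsw, 5.70% for Ctsc and 2.76% for Ctsd, where genotype took more, at 63.1%, 30.8% and 94.0%. Over all genes the median share of the experiment was 47.2%, and that of genotype was 15.5%.

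**Figure D3:**
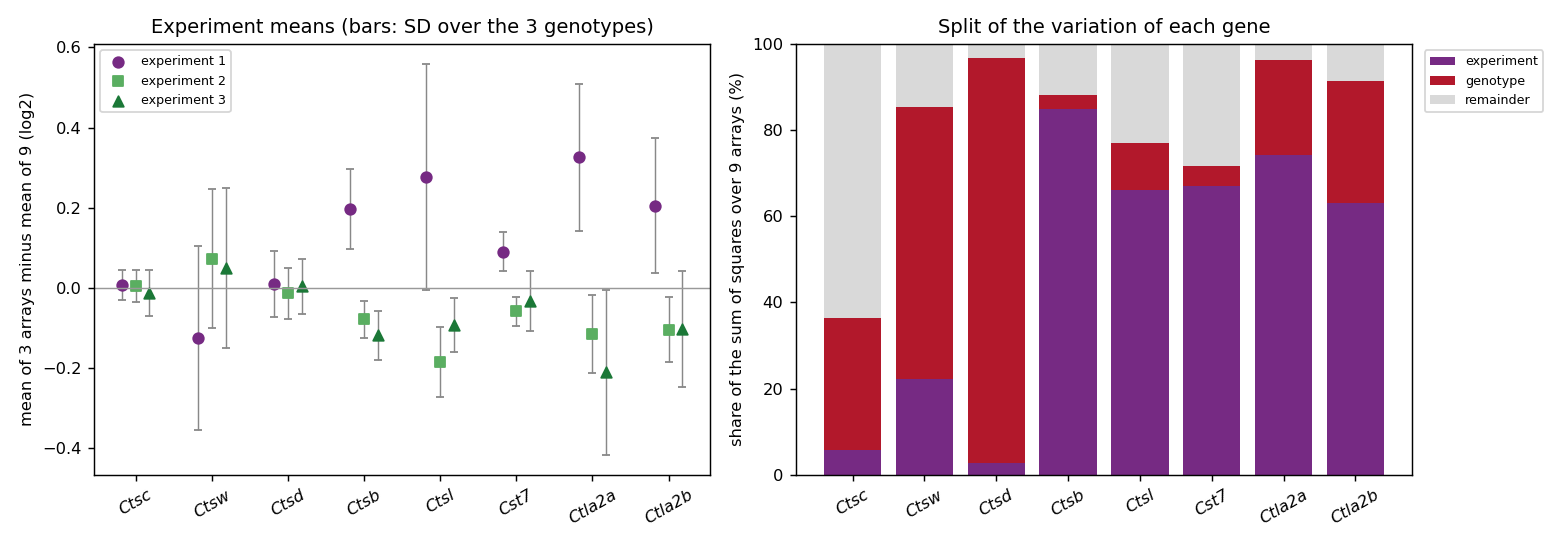
Left, mean of the 3 arrays of each experiment minus the mean of all 9 (log2) for each gene, with bars for the SD over the 3 genotypes. Right, share of the sum of squares over 9 arrays (%) due to experiment, genotype and the remainder. Ctla2a, Ctla2b, Ctsb and Ctsl are highest in experiment 1, and genotype takes its largest shares here in Ctsd (94.0%) and Ctsw (63.1%).

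Macrophages are rich in cathepsins B, D and L, and their markers were examined beside the experiments. Of the 12 listed monocyte and macrophage markers 11 had a probe set and 4 passed the filter. The mean level of these 4 was 6.63 to 6.79 in experiment 1, 6.44 to 6.58 in experiment 2 and 6.44 to 6.50 in experiment 3. The defining genes Adgre1, Csf1r, Lyz2, Fcgr1, C1qb, C1qc and Ms4a7 were below the filter. Ctsb and Ctsl were higher in experiment 1, whereas Ctsd averaged 12.37, 12.34 and 12.36 in experiments 1, 2 and 3. The part of such cells in the readings of Ctsb, Ctsd and Ctsl was not tested.

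Of other genes of the granule and the lysosome, grouped in the 6 lists below, none passed in limma in any comparison. Among 12 tested other lysosomal proteases of 15 listed, the median difference was -0.06 in Tyk2-/- and -0.08 in Tyk2K923E against WT. In each comparison 2 higher and 4 lower genes of the 12 had an unadjusted p under 0.05 (9.08% and 10% of all genes). Ctsg, cathepsin G, a serine protease of myeloid and basophil granules, differed by 0.57 in Tyk2-/- and by 0.89 in Tyk2K923E against WT (adjusted p = 0.5 and 0.198). It shared its direction with Mcpt8. Ctss, cathepsin S, which trims the invariant chain of MHC class II, differed by -0.11 and -0.33 (adjusted p = 0.767 and 0.263). Scpep1, a serine carboxypeptidase, differed by -0.02 and -0.24, and Cpq, a plasma glutamate carboxypeptidase, by -0.21 and 0.19.

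Of other inhibitors only 4 of 17 listed were tested, with medians of 0.03 in Tyk2-/- and -0.01 in Tyk2K923E against WT. Cst3, cystatin C, differed by 0.08 and -0.05, and Cstb, the cytosolic cystatin B, by 0.14 and 0.18. Serpinb9, which inhibits granzyme B, differed by -0.02 and 0.03, and Serpinb6b, a related serpin, by -0.16 and -0.08. The adjusted p of these 4 genes against WT lay between 0.504 and 0.942.

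The 19 tested genes of the granule, a list of granzymes, perforin, other granule proteins and the machinery that docks and fuses granules, had medians of -0.01 in Tyk2-/- and 0.02 in Tyk2K923E against WT. Prf1, perforin, differed by 0.09 in Tyk2-/- (limma adjusted p = 0.701) and by 0.19 in Tyk2K923E (adjusted p = 0.32) against WT. The difference in Tyk2-/- was 0.12, 0.13 and 0.0065 in experiments 1, 2 and 3. The WT arrays of Prf1 lay below those of both other genotypes. Groups did not overlap for 5.33% of all genes in Tyk2-/- and for 7.23% in Tyk2K923E against WT. Gzmf, a granzyme of activated lymphocytes, differed by 0.73 in Tyk2K923E against WT and by -0.68 in Tyk2-/- against Tyk2K923E (adjusted p = 0.251 and 0.452). Gzmk differed by -0.23 in Tyk2-/- against WT (adjusted p = 0.393), and Cd63, a tetraspanin of the granule membrane, by 0.35 (adjusted p = 0.344).

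The 13 genes that sort acid hydrolases had medians of 0.02 in Tyk2-/- and -0.04 in Tyk2K923E against WT. Sorl1, a sorting receptor, differed by -0.46 in Tyk2K923E against WT (limma adjusted p = 0.279), with no overlap, as for 7.23% of all genes. Igf2r, the large mannose 6-phosphate receptor, differed by 0.12 in Tyk2-/- (adjusted p = 0.7). Gga2, an adaptor for these receptors, differed by 0.32 in Tyk2-/-, and Sort1 by 0.10. Over 20 lysosomal hydrolases and membrane proteins the medians were -0.03 and -0.03. Hexa, a subunit of hexosaminidase, had differences of 0.14 in Tyk2K923E against WT and -0.17 in Tyk2-/- against Tyk2K923E (adjusted p = 0.489 and 0.452). Atp6v1a, a subunit of the proton pump, differed by 0.17 in Tyk2K923E against WT (adjusted p = 0.394), and Man2b1, a lysosomal mannosidase, by -0.21 in the same comparison (adjusted p = 0.383). Ctns, the cystine transporter, differed by -0.22 in Tyk2-/- against WT (adjusted p = 0.45).

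**Figure D4:**
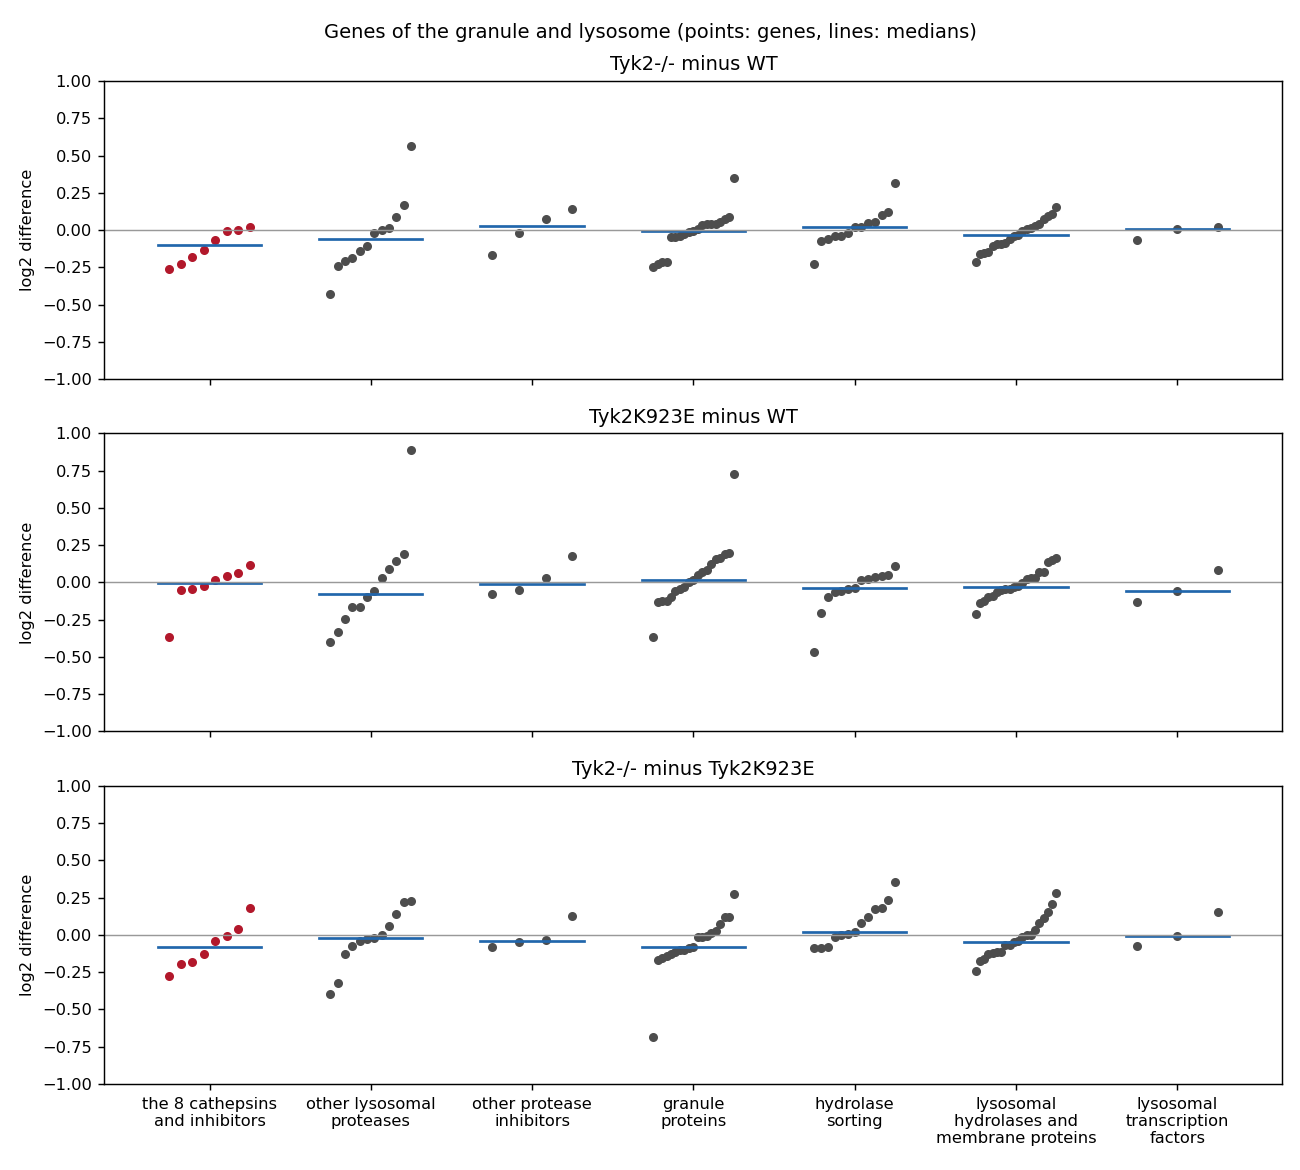
Log2 difference (vertical axis) of every tested gene in the 8 members and the 6 related lists, with 1 panel per comparison. Points are genes, sorted within a list, and blue lines are list medians. The list medians lie between -0.10 and 0.03, and the point at the top of the lysosomal proteases in Tyk2K923E against WT is Ctsg at 0.89.

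The genes whose pattern across genotypes was closest to each member were found by Pearson's r over the 9 arrays after each experiment's mean was removed. These coefficients are the highest of 12578 for each member, over arrays that share 3 experiments, and are given as a description. For Ctsw they were Pglyrp2 (r = 0.993) and Ighm (0.990). For Ctsd they were Rab27a (0.984), the small GTPase that docks lytic granules at the membrane, and Psd4 (0.983), and Rab27a differed by 0.16 in Tyk2K923E and by 0.01 in Tyk2-/- against WT. For Ctla2b they were Irf2 (0.985) and Ccndbp1 (0.980), and for Ctla2a Elfn2 (0.974) and Abi1 (0.967). For Ctsc they were Tmem33 (0.973) and Ehhadh (0.971), for Cst7 Cuta (0.975) and Lypla2 (0.951), for Ctsb Babam1 (0.976) and Tmem176b (0.970), and for Ctsl 1700110I01Rik (0.985) and Sox8 (0.981). No gene was the closest of more than 1 member, and Ctla2a and Ctla2b were not among each other's closest.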

How the data were processed

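Gene expression was measured on 9 Affymetrix arrays. The authors deposited log2 values per probe set, normalised by RMA in Partek 6.6 per the submitters' processing notes; the genome build was not given in the sources used here. The values were used unchanged. Of 41345 probe sets, 23521 carried 1 gene symbol in the platform annotation, 1814 several and 16010 were not listed. Probe sets at or above the median of their array on at least 3 of 9 arrays were kept (13245), and the brightest stood for its gene (12579 genes). Genotypes were compared with limma 3.58.1 in R 4.3.3 (lmFit, eBayes, all 9 arrays), with the experiment as a block and Benjamini-Hochberg adjustment over all genes.

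The labels state 3 independent experiments, so equal numbers pair the arrays. Deviations from genotype means correlated at 0.383 to 0.787 between arrays of 1 experiment (9 pairs) and at -0.71 to 0.559 otherwise (18 pairs). Precision is limited by having 3 arrays in each group.

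Named genes were the 8 members, Tyk2, the 2 closest genes by r and, per list, those past the threshold and up to 4 with the smallest p. The members and lists were chosen with earlier results of these data known. The procedure was tested on simulated data. Alternatives were the blocks, filters, scaling, eBayes settings, probe set means and leaving out arrays or experiments. Leaving each experiment out of the test between experiments was added after seeing the data. Sequences were aligned with Biopython 1.88.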

Additional observations from a re-analysis of the deposited data

How the results depend on the processing

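Under all 20 alternatives in each comparison, 0 of the 8 cathepsins and inhibitors passed. For Ctsw in Tyk2K923E against WT the adjusted p was 0.167 with the replicate block and 0.833 without it, and it ranged from 0.0854 (with an intensity trend) to 0.833 over the alternatives. The block decided no call of a member. Ctsl could not be fitted with the 70th percentile filter, which removed it.

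Counts over all genes moved more. For Tyk2-/- against WT, 11 genes passed paired, 4 with no replicate block, 6 with only the 2 genotypes, 4 with no filter, 19 with the 70th percentile filter, 22 with a trend, 26 with array weights and 26 at a threshold of 0.1, and 3 to 10 when an array or experiment was left out. For Tyk2K923E against WT the 11 became 1 with no replicate block, 2, 1, 29, 41, 66 and 54 under the same changes, 20 with centring and 17 with quantile normalisation, and 1 to 6 with arrays left out. For Tyk2-/- against Tyk2K923E the 3 became 2 to 6 with arrays left out. The 3611 genes that passed between experiments became 0 without experiment 1 and 3374 and 2579 without experiments 2 and 3.

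Among 477 alternative values of members, 35 changed sign, all of small differences that had not passed. Other than by leaving out arrays these were Ctsd (0.00099 with centring) and Ctsc (-0.0203 with array weights) in Tyk2-/- against WT, Ctla2a in Tyk2K923E against WT (-0.00043 with quantile normalisation) and Ctsb in Tyk2-/- against Tyk2K923E (0.0058 with centring and 0.0203 with array weights). With arrays left out, Tyk2-/- against WT ran from -0.0319 to 0.0417 for Ctsc, -0.0205 to 0.0025 for Ctsd, -0.125 to 0.001 for Ctsb, -0.272 to 0.0264 for Ctsl and -0.0142 to 0.0655 for Cst7. Tyk2K923E against WT ran from -0.0323 to 0.164 for Ctsl, -0.0782 to 0.0244 for Cst7, -0.0343 to 0.0809 for Ctla2a and -0.0974 to 0.0379 for Ctla2b. Tyk2-/- against Tyk2K923E ran from -0.0771 to 0.035 for Ctsb and -0.0119 to 0.11 for Cst7. The causes were not tested.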
